A study of Mus musculus with 12 samples.

Results

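Vip interneurons were taken from single-nucleus RNA profiles of mouse cortex at postnatal day 21, and their genes were compared between MYT1L heterozygous (Het) and wild-type (WT) animals. A barcode counted as a Vip nucleus when it held at most 12000 unique molecular identifiers (UMIs, the count of distinct captured RNA molecules), at most 1% mitochondrial UMIs, at least 2 Vip UMIs, at least 1 Gad1 or Gad2 UMI, at most 1 Sst UMI, no Pvalb UMI and at most 1 Slc17a7 UMI. This rule gave 591 Vip nuclei, 271 from WT and 320 from Het, among 71914 barcodes within the UMI and mitochondrial limits and 78743 barcodes in all. The nuclei came from 12 animals, and each genotype was represented by 3 males and 3 females. Het animals carried 1 copy of the S710fsX frameshift allele of Myt1l, which encodes a zinc finger transcription factor of neurons, and all animals came from WT by Het matings. Both genotypes also received AAV9 viruses into the ventricles as newborns, carrying a tdTomato reporter and a transposase, so that the WT animals were not untreated. The allele is present in every cell of the animal, so a difference in Vip nuclei need not arise in them, and the dissected cortex and the recovery of nuclei set which Vip cells were sampled.

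Vip interneurons are GABAergic neurons that arise in the caudal ganglionic eminence of the embryo and settle mainly in the upper cortical layers. Many of them contact other interneurons, above all those that make somatostatin, so that their firing can release pyramidal cells from inhibition. They are excited by acetylcholine and serotonin, and subsets make calretinin (Calb2), cholecystokinin (Cck), acetylcholine (Chat) or corticotropin-releasing hormone (Crh) beside the Vip peptide.

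The name given to these nuclei was checked first against genes the rule did not use. Adarb2, a gene of interneurons from the caudal eminence, was detected in 587 of 591 Vip nuclei (99.3%, exact 95% interval 98.3 to 99.8). Prox1, a transcription factor of the same lineage, was detected in 414 (70.1%, 66.2 to 73.7), whereas Lhx6, which marks the medial eminence, was detected in 3 (0.508%, 0.105 to 1.48). In 7640 excitatory nuclei (at least 2 Slc17a7 UMIs and no Gad1 or Gad2 UMI), which were taken as the background for genes of interneurons, Adarb2 was found in 14.3%, Prox1 in 1.54% and Vip in 0.497%, at a median of 6937 UMIs per nucleus against 4510 in Vip nuclei. Adarb2 was found in 7.41% and Prox1 in 4.50% of 378 Lhx6 nuclei (at least 2 Lhx6 UMIs and no Vip UMI). In 281 Lamp5 nuclei (at least 2 Lamp5 UMIs and no Vip UMI) Adarb2 was found in 79.0% and Prox1 in 30.6%. These 2 genes thus mark the caudal lineage and do not by themselves tell Vip from Lamp5 nuclei. RNA that leaks between nuclei and expression in the background nuclei themselves cannot be told apart in these shares. Only 2 excitatory nuclei held 2 or more Vip UMIs. These intervals cover counting error only, and since cells of 1 animal are not replicates they do not compare groups. Genes that define Vip nuclei were measured in the nuclei that were chosen, so these shares and the levels below describe the choice and were not tested.

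The threshold of 2 Vip UMIs fell inside a gradient. Among nuclei that met the other criteria, those with exactly 1 Vip UMI (248, just outside) held Adarb2 in 83.9% and Prox1 in 51.6%. Those with exactly 2 (153, just inside) held Adarb2 in 98.0% and Prox1 in 64.1%, and those with 3 or more (438) held them in 99.8% and 72.4%. Nuclei with no Vip UMI (12715) held Adarb2 in 45.3% and Prox1 in 9.91%. Of 706 kept barcodes with at least 2 Vip UMIs, 109 lacked Gad1 and Gad2, 6 had too many Slc17a7 UMIs, 2 had Pvalb and none had Sst above the limit. A Vip nucleus held a median of 4 Vip UMIs and at most 24, with 1646 to 11947 UMIs in total and a median of 1955 genes.

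Total counts ranged from 23429400 to 59958600 UMIs per animal, of which 84189 to 377267 lay in Vip nuclei, and no barcode occurred in more than 1 library. Over the tested genes, log CPM in Vip nuclei correlated between pairs of animals at 0.865 to 0.953, a description only, since genes are not independent. Transcript counts do not check the genotype here, because a frameshift allele can still be transcribed. Myt1l itself lies on chromosome 12 at 29528384 to 29923213 (mm10, GENCODE M21) and was detected in 95.8% of Vip nuclei.

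How abundant Vip nuclei were in each genotype was the first question. WT animals gave 18 to 71 Vip nuclei (median 38.5), and Het animals gave 42 to 67 (median 50). As a share of all kept nuclei this was 0.474 to 1.19% in WT (median 0.783%) and 0.655 to 0.918% in Het (median 0.859%). The ranges overlapped, with the Het animals inside the WT range, and the means of 0.799% ± 0.244 and 0.819% ± 0.105 (SD, n = 6 each) differed by 0.0202 percentage points (two-sided exact permutation test, p = 0.861).

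As a share of the 13946 GABAergic nuclei (Gad1 or Gad2 present, at most 1 Slc17a7 UMI), Vip nuclei made up 2.46 to 5.67% in WT (median 4.18%) and 3.43 to 4.69% in Het (median 4.21%). Here too the Het values lay within the WT range, with means of 4.24% ± 1.17 and 4.08% ± 0.502 (SD, n = 6 each, exact permutation p = 0.758). The lowest share on both denominators was that of WT male 1, the animal with 18 Vip nuclei. The sexes were also taken apart. In females the share of all kept nuclei was 0.666 to 0.849% in WT and 0.874 to 0.918% in Het, which did not overlap, with an exact permutation p of 0.1, the smallest that 3 against 3 can give. In males the ranges of 0.474 to 1.19% and 0.655 to 0.844% overlapped (exact permutation p = 0.7). In the share of all kept nuclei, the genotype difference in females exceeded that in males by 0.265 percentage points. This did not pass the exact permutation test within sexes (p = 0.24). As a share of GABAergic nuclei the ranges overlapped in both sexes. In females they were 3.67 to 4.50% in WT and 4.27 to 4.69% in Het (exact permutation p = 0.3).

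**Figure D1:**
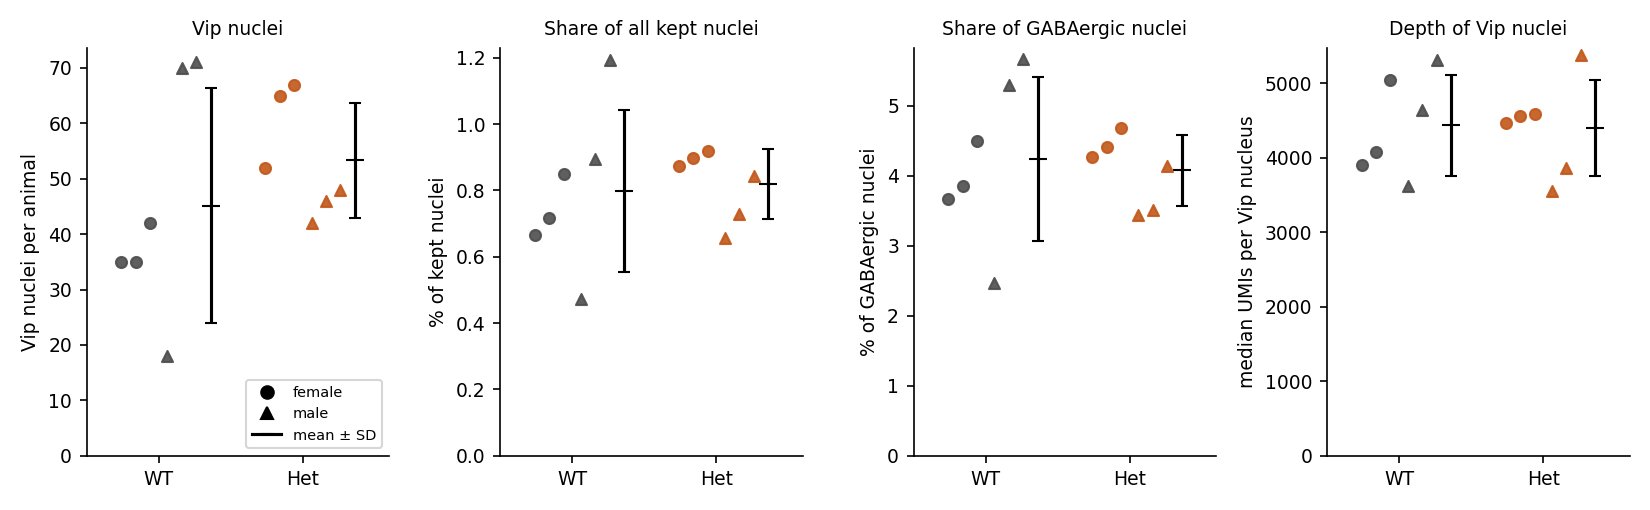
Vip nuclei per animal, their share of all kept nuclei and of GABAergic nuclei (percent), and the median UMIs per Vip nucleus, each starting at 0. Circles are females and triangles are males, and bars give the mean ± SD of 6 animals; the Het animals lie inside the spread of the WT animals in both shares.

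Because the rule counts raw UMIs, depth was compared too. Median UMIs per Vip nucleus were 3626 to 5315 in WT (median 4362) and 3554 to 5388 in Het (median 4515), and the difference of means was -32.5 UMIs (exact permutation p = 0.924). When every kept barcode was thinned to 1500 UMIs before the rule was applied, the share of kept nuclei was 0.207% ± 0.0402 in WT and 0.284% ± 0.0908 in Het (SD, n = 6 each), a difference of 0.0773 percentage points with an exact permutation p of 0.0823. Thinning did not change the call of either share. Fewer nuclei of a type recovered and fewer cells of that type in the tissue cannot be told apart in shares of this kind.

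Genes that set Vip nuclei apart from other interneurons are described by CPM, the UMIs of a gene scaled to the same total in each kind of nuclei and pooled over nuclei, and compared only within a gene. Comparison nuclei carried at least 2 Lamp5 UMIs (281 Lamp5 nuclei) or at least 2 Lhx6 UMIs (378 Lhx6 nuclei), with no Vip UMI, together with 42 Sst and 45 Pvalb nuclei. Among 7679 genes found in at least 10% of the nuclei of a compared type, the 10 with the highest ratio of Vip nuclei to the mean of Lamp5, Sst and Pvalb nuclei (5 CPM added to both) were Cp, Wnt5b, Plpp4, Dpf3, Sema5b, Sorcs3, Angpt1, Rgs12, Gpd1 and Adarb2. For each of these genes, the level in the Vip nuclei of all 12 animals lay above that in the Lamp5 and Lhx6 nuclei of every animal.

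Cp, which encodes the ferroxidase ceruloplasmin, reached 134 CPM in Vip nuclei (74.9 to 180 over animals) against 0.571 in Lamp5 and 1.31 in Lhx6 nuclei, a ratio of 26.8. Wnt5b, a secreted Wnt ligand, followed at 143 CPM (71.3 to 176) with a ratio of 17.6. Sema5b, a semaphorin of axon guidance, stood at 173 CPM (124 to 227) and 11.3 times the other types. Sorcs3, a sorting receptor of the VPS10 family, was found in 98.0% of Vip nuclei at 2222 CPM (1704 to 2493), against 515 CPM in Lamp5 and 97.6 in Lhx6 nuclei. Angpt1, a ligand of the Tie2 receptor, gave 130 CPM, and Rgs12, a regulator of G protein signalling, 104 CPM.

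The 5 genes with the lowest ratio were Eya4, Sox6, Nxph1, Iqgap2 and Unc13c. Sox6, a transcription factor of the medial lineage, had 30.8 CPM in Vip and 1263 CPM in Lhx6 nuclei. Its low level was shared with Lamp5 nuclei, at 25.3 CPM. Nxph1, which encodes the secreted neurexin ligand neurexophilin 1, had 143 CPM in Vip, 2654 in Lamp5 and 4054 in Lhx6 nuclei. Not 1 of the 12 animals had a Vip level of these genes above every Lhx6 animal.

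**Figure D2:**
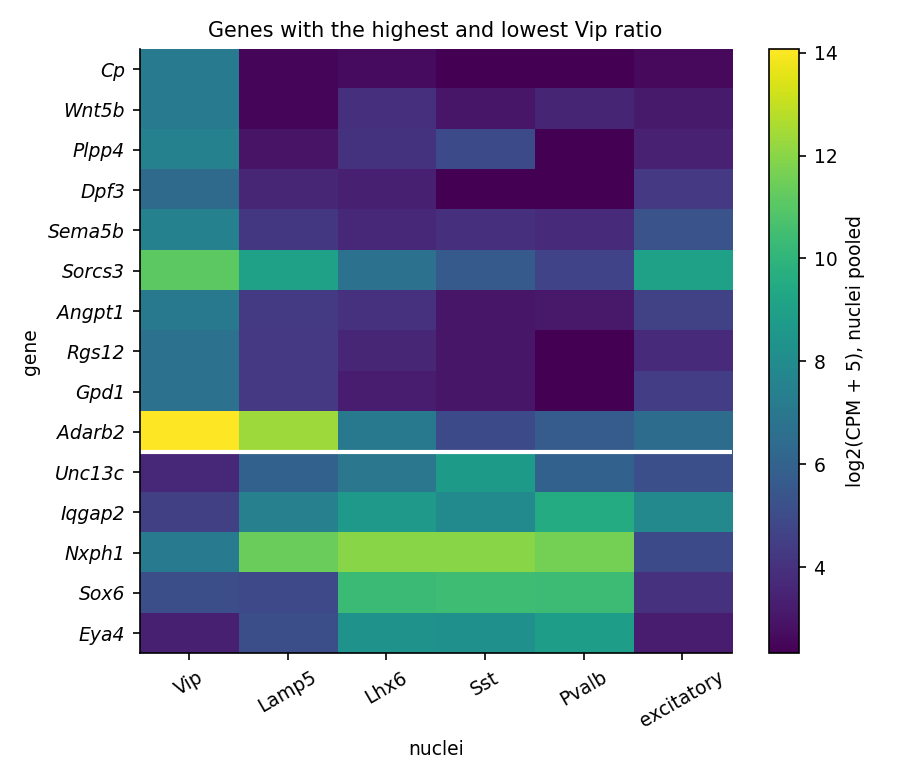
Levels as log2(CPM + 5), nuclei pooled, of the 10 genes with the highest and the 5 with the lowest ratio of Vip nuclei to other interneurons. Rows are genes and columns are kinds of nuclei. Each upper row is brightest in the Vip column, with Cp at 134 CPM against 0.571 in Lamp5 nuclei. Each lower row is darker in the Vip column than in the Lhx6, Sst and Pvalb columns, although Nxph1 still has 143 CPM there.

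Peptides and receptors of Vip cells were then read from lists. Igf1, a growth factor released by Vip cells, was detected in 82.2% of Vip nuclei at 564 CPM (476 to 655 over animals) against 103 CPM in Lamp5 and 36.9 in Lhx6 nuclei, with all 12 animals above both. Synpr, which encodes the synaptic vesicle protein synaptoporin, reached 98.8% of Vip nuclei and 1967 CPM against 113 and 735. Crh was found in 8.80%, Penk in 10.5% and Tac2 in 8.12% of Vip nuclei, against 0.183%, 0.576% and 0.144% of excitatory nuclei. Tac1 was found in no Vip nucleus of 591. Over the whole list of 16 interneuron peptides, which holds the rule genes Vip and Sst, pooled CPM was above that of Lhx6 nuclei for 7 and below it for 9. Against Lamp5 nuclei it was above for 6 and below for 9. For 2 of the 16 all 12 animals were above every Lamp5 and every Lhx6 animal. Calb2 was detected in 40 Vip nuclei (6.77%) against 0.602% of excitatory nuclei, whereas Cck was detected in 25 (4.23%), against 4.98% of Lamp5 nuclei, 1.85% of Lhx6 nuclei and 7.16% of the excitatory nuclei, which can make Cck themselves. No nucleus held both, and 526 held neither.

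Of 26 serotonin and acetylcholine receptor genes, 1 was detected in over 50% of the Vip nuclei. This was Chrm3, a muscarinic acetylcholine receptor, in 90.5% of Vip nuclei at 1010 CPM, against 503 CPM in Lamp5 and 686 CPM in Lhx6 nuclei. Htr3a, a subunit of the ionotropic serotonin receptor, was present in 14.9% of Vip nuclei at 36.8 CPM, against 0 CPM in Lhx6 and 1.14 in Lamp5 nuclei. Chrna5 and Chrna4, nicotinic receptor subunits, were found in 7.95% and 8.63% of Vip nuclei and in 0% and 2.38% of Lhx6 nuclei. Chrna7 stood at 194 CPM in Vip nuclei, above Lhx6 nuclei (42.5 CPM) in all 12 animals but near Lamp5 nuclei (224 CPM). Over the whole list of 26 receptor genes, pooled CPM was above that of Lhx6 nuclei for 14 and below it for 9. Against Lamp5 nuclei it was above for 12 and below for 12. For 1 receptor gene all 12 animals were above every Lamp5 and every Lhx6 animal. Chat, the enzyme that makes acetylcholine, was present in 15.2% of Vip nuclei at 48.3 CPM against 0.784 CPM in Lhx6 nuclei.

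Transmission and adhesion genes followed a split pattern. The metabotropic glutamate receptor Grm8 reached 1238 CPM in Vip nuclei against 292 in Lamp5 and 150 in Lhx6 nuclei, and the potassium channel Kcnt2 reached 1596 CPM against 374 and 73.6. Of the adhesion molecules of synapses, Sdk1 was at 1782 CPM against 121 and 263, and Cntn4 at 3999 CPM against 591 and 1536. For these 4 genes all 12 animals were above every Lamp5 and every Lhx6 animal. Over whole lists this held for 3 of 25 glutamate receptor, 1 of 38 voltage-gated channel and 6 of 53 adhesion genes. The share over all genes was not counted. Of the 25 glutamate receptor genes, pooled CPM was below that of Lhx6 nuclei for 12 and of Lamp5 nuclei for 9. Of the 38 channel genes it was below for 21 and for 24. Over the whole list of 53 adhesion genes, pooled CPM was above that of Lhx6 nuclei for 32 genes and below it for 21, and it was above that of Lamp5 nuclei for 30 and below it for 23. Among those below were Cntnap5a, at 363 CPM in Vip and 1277 CPM in Lhx6 nuclei, and Cdh18, at 184 CPM and 484 CPM. The NMDA receptor subunit Grin2a was the other way, at 740 CPM in Vip, 3228 in Lamp5 and 1372 in Lhx6 nuclei, and so was the AMPA subunit Gria3, at 246, 734 and 973 CPM. Kcnc2, the fast potassium channel, gave 729 CPM in Vip against 2920 CPM in Lhx6 nuclei. Myt1l itself was at 1072 CPM in Vip nuclei, 782 in Lamp5 and 694 in Lhx6 nuclei.

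Vip nuclei were not uniform. Clustering of the 591 nuclei gave 12 clusters of 26 to 71 nuclei, each with nuclei of at least 10 animals and at most 23.1% from 1 animal. The genes that lead a cluster were used to form it and are given as a description. Cluster 1 (71 nuclei) led with Htr1f, a serotonin receptor found in 43.7% of it and 4.62% of the other Vip nuclei, and with Vwc2l. Cluster 2 (67 nuclei) led with Chat, in 61.2% of its nuclei against 9.35% of the rest. Cluster 3 (56 nuclei) led with Mybpc1 (67.9% against 10.1%) and Pde3a, and Crh was found in 25.0% of it.

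Cluster 4 (53 nuclei) led with Grm8, in 98.1% against 49.4%, and with the calcium release channel Ryr3. Cluster 5 (53 nuclei) led with the phosphatase Ptprt (98.1% against 42.8%) and Angpt1. Cluster 6 (52 nuclei) led with Nxph1 and Ccbe1, and cluster 9 (42 nuclei) with Prr16 and Ptprk (69.0% against 12.8%), with the relaxin receptor Rxfp1 in 66.7%. Cluster 7 (49 nuclei) led with Cadps2 (57.1% against 12.4%) and Col19a1 (91.8% against 17.5%), and held the extracellular glycoprotein Reln in 65.3%, the cannabinoid receptor Cnr1 in 91.8%, Cck in 30.6% and Htr3a in 46.9% of its nuclei, with Calb2 in none. Cck was found in 0 to 11.5% of the other clusters.

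Clusters 10 (41 nuclei), 11 (36) and 12 (26) led with A930017M01Rik, Cpne4 and Unc5d. Mybpc1 came back in cluster 11, in 63.9% of its nuclei, and the serotonin receptor Htr2c reached 69.2% in cluster 12 against 0% in cluster 10. Prox1 was found in 55.6 to 86.1% of every cluster and Adarb2 in 94.2% or more. Cluster shares of the Vip nuclei overlapped between WT and Het animals in all 12 clusters. No cluster was given a cell type name.

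**Figure D3:**
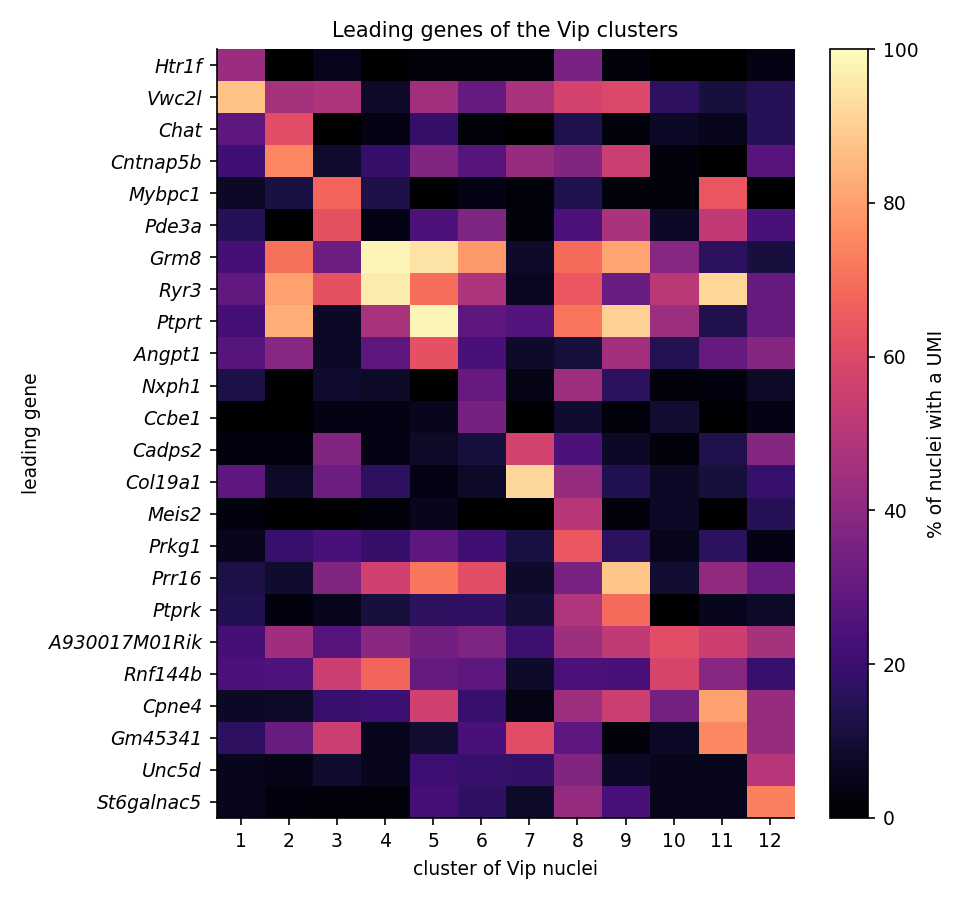
Percent of nuclei in each of the 12 clusters of Vip nuclei with at least 1 UMI of the leading genes. Each row is a gene and each column a cluster; Chat is at 61.2% in cluster 2 and Mybpc1 is high in clusters 3 and 11 (67.9% and 63.9%).

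Cluster 8 (45 nuclei) stood apart from the rest. It had a median of 7896 UMIs, and 55.6% of its nuclei were among the 5% highest doublet scores of their animals, whereas no nucleus of the other clusters was. Several lists of markers of other cells had higher summed levels in it than in the other Vip nuclei, at 546 against 24.8 CPM for 4 oligodendrocyte genes, 135 against 7.19 CPM for 6 excitatory genes, 97.6 against 4.15 CPM for 4 astrocyte genes, 162 against 9.09 CPM for 4 microglial genes, 631 against 126 CPM for 4 neuroblast genes and 434 against 250 CPM for 8 genes of the medial lineage. Markers of oligodendrocyte precursors were at 89.0 against 14.4 CPM. Striatal markers were at 10.1 against 14.2 CPM, Lamp5 and Sncg type markers at 124 against 139 CPM, and endothelial and meningeal markers at 10.1 against 9.97 CPM. Summed over all Vip nuclei, striatal markers were at 13.7 CPM, oligodendrocyte precursor markers at 23.4 CPM, endothelial and meningeal markers at 9.99 CPM and Lamp5 and Sncg type markers at 137 CPM, with Drd1, Gfap, Cldn5, Col1a1, Sncg, Nkx2-1 and Pvalb at 0. By animal, oligodendrocyte markers ranged from 11.1 to 324 CPM in WT and from 10.7 to 257 CPM in Het, excitatory markers from 6.25 to 54.0 and from 3.09 to 85.4 CPM, and microglial markers from 5.30 to 113 and from 12.5 to 42.8 CPM. The ranges of all marker lists overlapped between genotypes, except that of the Lamp5 and Sncg types, which holds Reln, at 119 to 662 CPM in WT and 80.0 to 115 CPM in Het. The comparisons below were repeated without cluster 8.

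Expression in Vip nuclei was compared between Het and WT on UMIs summed per animal, with edgeR's quasi-likelihood test and Benjamini-Hochberg adjustment. Of 3208 genes tested, 0 were called at an adjusted p under 0.05 with an absolute log2 fold change over 0.2 (0% called). The smallest adjusted p was 0.323. At an unadjusted p under 0.05 there were 173 genes (5.39%), 91 higher (2.84%) and 82 lower (2.56%) in Het, and DESeq2 on the same sums called 1 gene, Kctd16. Without cluster 8 edgeR called 0 of 2903 genes. The median standard error of a log2 fold change was 0.195 and the median half-width of its unadjusted 95% interval was 0.396. Log2 fold changes split evenly, with 1620 genes (50.5%) above 0 and a median of 0.0018.

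**Figure D4:**
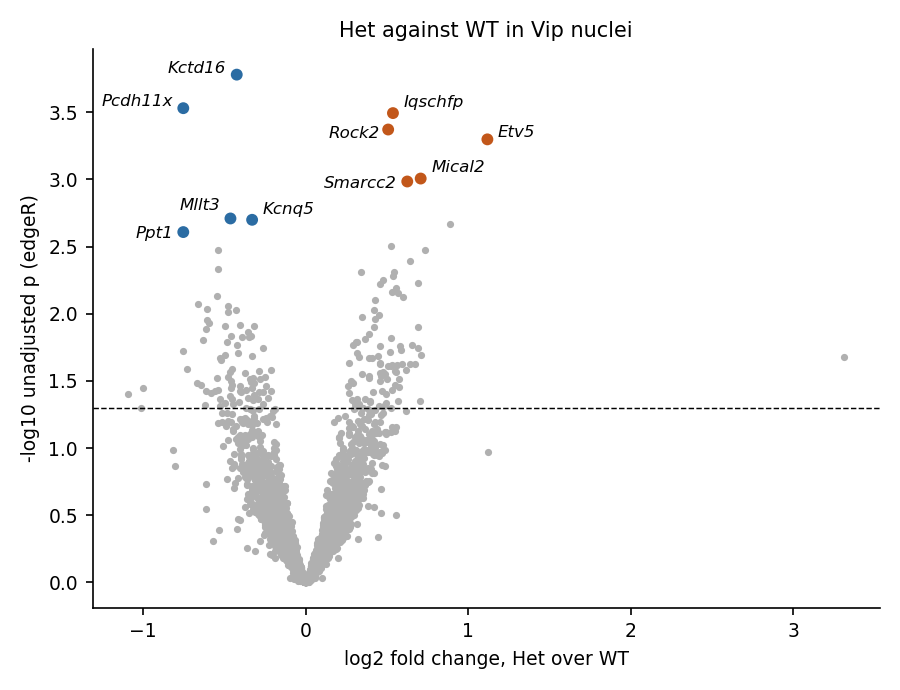
Log2 fold change of Het over WT in Vip nuclei (x axis) against -log10 of the unadjusted edgeR p (y axis) for 3208 genes. Coloured points are the 5 genes of smallest p in each direction and the dashed line marks an unadjusted p of 0.05; no gene passed after adjustment.

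Myt1l ranged from 838 to 1180 CPM in WT Vip nuclei (median 1087) and from 1002 to 1230 CPM in Het (median 1097), on a scale normalized between animals. The groups overlapped, with a log2 fold change of 0.06 (SE 0.11, edgeR adjusted p = 0.989), which was -0.0039 without WT female 3. Its relatives Myt1 and St18 were too low to be tested, with 36 and 61 UMIs summed over WT and 45 and 76 over Het. Genes that the rule used chose the nuclei, so their fits are not read as tests of genotype. Vip itself, on chromosome 10 at 5639218 to 5647617, was at 835 to 1067 CPM in WT (median 911) and 792 to 1152 CPM in Het (median 931). Gad1, an enzyme of GABA synthesis, was at 280 to 367 CPM in WT (median 300.1) and 312 to 505 CPM in Het (median 382).

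Of the genes with the smallest p values, those higher in Het are given first. Iqschfp had 281 to 488 CPM in WT (median 325) and 395 to 595 CPM in Het (median 508), a log2 fold change of 0.54 (SE 0.14, edgeR adjusted p = 0.323). Rock2, a kinase that acts on the cytoskeleton, had 232 to 432 CPM in WT (median 362) and 392 to 552 CPM in Het (median 511). In both genes all 6 Het animals lay above the WT median, while the ranges overlapped. Etv5, an ETS family transcription factor on chromosome 16 at 22381309 to 22439719, had 11.4 to 75.9 CPM in WT (median 59.5) and 61.2 to 129 CPM in Het (median 98.8). Its fold change was 1.12 on the log2 scale (SE 0.28, 95% interval 0.54 to 1.70, edgeR adjusted p = 0.323), from 59 UMIs in WT and 146 in Het, and the ranges overlapped between 61.2 and 75.9 CPM. Mical2, an enzyme that oxidizes actin, and Smarcc2, a chromatin remodelling subunit, completed the 5 genes with log2 fold changes of 0.71 (SE 0.20) and 0.62 (SE 0.18).

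On the lower side, Kctd16 had the smallest p of all genes. This auxiliary subunit of GABA-B receptors had 1538 to 1923 CPM in WT (median 1651) and 1138 to 1404 CPM in Het (median 1269). Every Het animal was below every WT animal, with a log2 fold change of -0.42 (SE 0.10, 95% interval -0.63 to -0.22), an edgeR adjusted p of 0.323 and a DESeq2 adjusted p of 0.00967. Groups did not overlap in 7 of 3208 genes (0.218%). Of these, 6 (0.187%) had the lower values in Het, among them Kctd16, Kcnq5, AW554918, Gm48261 and Reln, and 1 (0.0312%), Btaf1, the higher. Over all relabellings of 6 against 6 animals, a share of 0.00216 separates the groups fully. Separation was thus about as frequent as under exchanged labels.

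Kcnq5, which carries the slow M-type potassium current, had 2514 to 3056 CPM in WT (median 2781) and 1738 to 2390 CPM in Het (median 2273), a log2 fold change of -0.33 (SE 0.10, edgeR adjusted p = 0.688). Pcdh11x, an X-linked protocadherin, had 108 to 236 CPM in WT (median 170) and 64.3 to 145 CPM in Het (median 98.5), with all 6 Het animals below the WT median and overlapping ranges. Mllt3, a subunit of transcription elongation complexes, and Ppt1, a lysosomal thioesterase, had log2 fold changes of -0.46 (SE 0.14) and -0.75 (SE 0.23). None of the 4 passed.

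**Figure D5:**
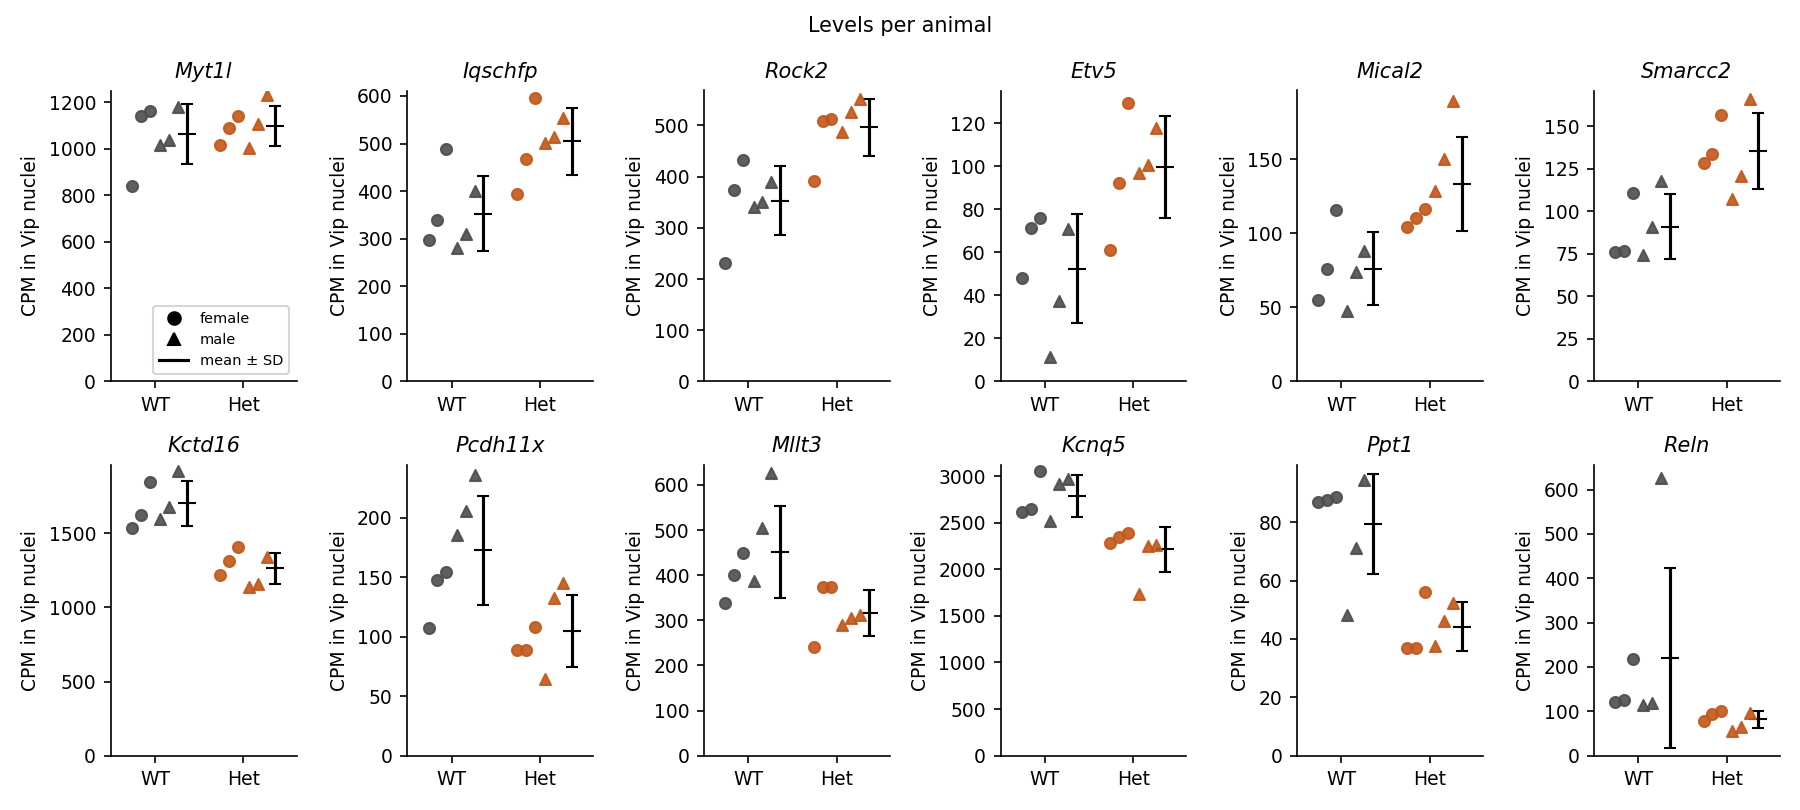
CPM in Vip nuclei per animal for Myt1l, the 5 genes of smallest p in each direction and Reln, each axis starting at 0. Circles are females, triangles males and bars the mean ± SD of 6 animals; the groups separate fully for Kctd16, Kcnq5 and Reln and overlap for the others, and Reln has 1 high WT male at 625 CPM.

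Lists of interneuron genes were read in the same fit, and no member of any list was called. Of 16 interneuron peptides, 3 passed the filter on low counts, Igf1, Nxph1 and the rule gene Vip, whose fit is not read as a test. Igf1 was at 530 to 661 CPM in WT (median 556) and 482 to 582 CPM in Het (median 552), with overlapping groups. Of 24 genes of the caudal lineage 12 were tested, with 6 log2 fold changes above 0 and 6 below. Adarb2 had 16227 to 20611 CPM in WT (median 18620) and 12085 to 18734 CPM in Het (median 16073), with 5 of 6 Het animals below the WT median (log2 fold change -0.20, SE 0.10, edgeR adjusted p = 0.899). Under the limits of the study its direction turned, to 0.0819. Prox1 had all 6 Het animals above the WT median (0.23, SE 0.14, edgeR adjusted p = 0.980). Nfia and Maf, transcription factors, gave log2 fold changes of 0.47 (SE 0.22) and 0.33 (SE 0.16). Maf is also on the list of 8 medial genes used above as markers of other cells, so it does not tell the lineages apart here. It had a median of 185 CPM in WT and 214 CPM in Het, beside 272 CPM for the 8 medial genes pooled over Vip nuclei.

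Among 32 genes that mark subtypes of Vip cells, 11 were tested, 4 above 0 and 7 below, with a median of -0.22 beside 0.0018 over all genes. That median is the value of Htr2c, which was 0.24 under the limits of the study and 0.24 without WT male 3. The list as a whole was not tested. Reln was at 114 to 625 CPM in WT (median 123) and 56.2 to 101 CPM in Het (median 86.3), so that the groups did not overlap, with a log2 fold change of -1.09 (SE 0.46, edgeR adjusted p = 0.874). The highest WT value rested on few nuclei, since in WT male 1, with 18 Vip nuclei, 39 of 53 Reln UMIs lay in 1 nucleus. Without this animal the log2 fold change of Reln was -0.67 (edgeR adjusted p = 0.620). Chat was at 16.4 to 106 CPM in WT (median 64.2) and 15.3 to 59.0 CPM in Het (median 36.8), with all 6 Het animals below the WT median (log2 fold change -0.62, SE 0.30, adjusted p = 0.895). Rxfp1 gave -0.46 (SE 0.22), with WT male 1 again the highest at 260 CPM against 88.6 to 126 CPM in the other WT animals, and the log2 fold change was -0.30 without it.

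In the receptor lists, tested members lay on both sides of 0. Of 26 serotonin and acetylcholine receptors 5 were tested (2 above 0, 3 below), of 13 GABA-A receptor subunits 10 were tested (5 and 5), and of 25 glutamate receptors 20 (10 and 10). The NMDA subunit Grin2b had 1237 to 1886 CPM in WT (median 1639) and 1779 to 2093 CPM in Het (median 1820), with all 6 Het animals above the WT median and overlapping ranges (log2 fold change 0.20, SE 0.10, edgeR adjusted p = 0.917). Without WT female 3 the log2 fold change was 0.13. Among 8 genes of GABA synthesis and transport 6 passed the filter, 3 above 0 and 3 below, and 2 of those above were the rule genes Gad1 and Gad2, whose fits are not read as tests. The chloride transporters Slc12a2 and Slc12a5 gave -0.36 (SE 0.24) and -0.27 (SE 0.19), with -0.24 for Slc12a2 without Het male 3 and -0.53 for Slc12a5 without Het female 3.

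Of 38 voltage-gated sodium and potassium channel genes 22 were tested, 10 above 0 and 12 below. The A-type channel Kcnd2 had 924 to 1829 CPM in WT (median 1188) and 659 to 1111 CPM in Het (median 1066), with overlapping groups and a log2 fold change of -0.41 (SE 0.18, edgeR adjusted p = 0.866). Of 18 calcium channel genes 11 were tested, 7 above 0 and 4 below.

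Synaptic adhesion was the longest list, with 40 of 53 genes tested, 13 above 0 and 27 below, and a median of -0.07. Lrrtm4, a postsynaptic organizer, was at 6149 to 8015 CPM in WT (median 7023) and 5467 to 6666 CPM in Het (median 6163), with all 6 Het animals below the WT median (-0.22, SE 0.09, edgeR adjusted p = 0.866). Cdh10 gave -0.32 (SE 0.12) and Cntn4 -0.21 (SE 0.10), whereas Cdh13 gave 0.29 (SE 0.13). Of 31 genes of interneuron development signals found in the files 24 were tested, 9 above 0 and 15 below. Ntrk2, the receptor of brain-derived neurotrophic factor, was at 779 to 1313 CPM in WT (median 1187) and 1292 to 1632 CPM in Het (median 1431), which overlapped only between 1292 and 1313 CPM (0.34, SE 0.11, adjusted p = 0.866). Erbb4, the neuregulin receptor, gave -0.19 (SE 0.09, adjusted p = 0.895).

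Activity-regulated genes were mostly below the filter, with 3 of 19 tested, among them Homer1 at 0.45 (SE 0.18, edgeR adjusted p = 0.866). Of 16 genes of immature neurons 6 were tested, 2 above 0 and 4 below, with Stmn2 at -0.31 (SE 0.23), Gap43 at -0.14 (SE 0.24) and Dcx at -0.11 (SE 0.20), which was 0.15 with at least 3 Vip UMIs. Of 14 members of the Myt1 family and its corepressor complexes found in the files 5 were tested, with Rcor1 at 0.71 (SE 0.29) and Rcor3 at -0.61 (SE 0.23). Of 22 genes that the study names for its cortical nuclei at this age, a list chosen on these animals and no independent evidence of direction, 17 were tested, 5 above 0 and 12 below. Etv5 had the smallest p of them, followed by the ephrin receptor Epha5 (-0.29, SE 0.14, edgeR adjusted p = 0.892), and these were the 2 members at an unadjusted p under 0.05, a threshold passed by 5.39% of all genes tested. Smurf1 gave 0.47 (SE 0.30) and Epha3 gave -0.23 (SE 0.15).

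Calb2 and Cck were also compared as shares of Vip nuclei thinned to 1500 UMIs. The Calb2 share was 0 to 5.71% in WT and 0 to 5.77% in Het, and the Cck share was 0 to 2.86% and 0 to 3.08%. The differences of means were 0.109 and 0.491 percentage points (exact permutation p = 0.931 and 0.506, both 0.931 after Benjamini-Hochberg adjustment over the 2 genes). Shares this close to 1 UMI per nucleus allow no reading of a change, and without thinning the Calb2 shares were 6.54% ± 4.11 in WT and 7.13% ± 0.614 in Het (SD, n = 6 each).

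Whether the Het effect in Vip nuclei differed from that in other interneurons was tested as an interaction within animals. Against Lhx6 nuclei, 0 of 3763 genes were called by edgeR (0%), with 166 (4.41%) at an unadjusted p under 0.05 and 0 by DESeq2. Against Lamp5 nuclei, 3 of 3470 genes were called (0.0865%), with 233 (6.71%) at an unadjusted p under 0.05, and all 3 had the lower Het effect in Vip nuclei. DESeq2 called 0, and edgeR called 0 when the nuclei of cluster 8 were left out and 0 to 3 when 1 animal was left out, with 0 without each of WT male 3, the WT females, Het female 1 and Het female 3. Lamp5 nuclei were themselves mixed, with Adarb2 in 79.0%, Meis2 in 31.0% and Rgs9, a striatal gene, in 12.1% of 281. The summed level of 5 striatal markers in Lamp5 nuclei was 0 to 131 CPM in WT (median 24.6, 32 UMIs in all) and 32.6 to 366 CPM in Het (median 206, 190 UMIs), with overlapping ranges and none of the 5 at 0 over all animals. Rgs9 alone held 25 of these UMIs in WT and 136 in Het, and the other 4 markers held 7 and 54. With no filter on low counts, Rgs9 was itself among 7 genes called, at -2.90 (SE 0.66, edgeR adjusted p = 0.0426), the same direction as the 3 genes. The ranges of the other marker lists in Lamp5 nuclei also overlapped between genotypes. The part of this mixture in the result was not tested.

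Htr2c, a serotonin receptor on the X chromosome at 146962513 to 147197277, ranged from 82.9 to 439 CPM in WT Vip nuclei (median 212) and from 76.7 to 273 CPM in Het (median 196). In Lamp5 nuclei it ranged from 8.86 to 47.8 CPM in WT (median 30.0) and from 58.0 to 278 CPM in Het (median 108). In Lhx6 nuclei the medians were 75.7 CPM in WT and 127 CPM in Het, with overlapping ranges (log2 fold change 0.87, SE 0.23, edgeR adjusted p = 0.759). The groups overlapped in Vip nuclei and did not in Lamp5 nuclei, and the Het effect was 2.55 log2 units lower in Vip nuclei (SE 0.48, edgeR adjusted p = 0.0364). With 15 to 37 Lamp5 nuclei per animal, Htr2c was below the filter on low counts when Lamp5 nuclei were fitted alone. How many genes separate the genotypes in Lamp5 nuclei was not counted, so this separation has no share to be set against.

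Ptprk, a receptor phosphatase of cell contacts, ranged from 79.8 to 208 CPM in WT Vip nuclei (median 122) and from 53.7 to 116 CPM in Het (median 77.6), against 31.5 to 258 CPM and 88.6 to 322 CPM in Lamp5 nuclei. The difference of the effects was -1.64 (SE 0.32, edgeR adjusted p = 0.0364), while the effect within Vip nuclei was -0.61 (SE 0.28, edgeR adjusted p = 0.866). In Lhx6 nuclei the Ptprk medians were 45.5 CPM in WT and 34.0 CPM in Het. Grb14, an adaptor of the insulin receptor, ranged from 26.8 to 82.6 CPM in WT Vip nuclei (median 44.9) and from 8.63 to 24.5 CPM in Het (median 17.7). These groups did not overlap, but they hold 61 and 26 UMIs in all, below the filter of the comparison within Vip nuclei. In Lamp5 nuclei Grb14 ranged from 17.1 to 57.4 CPM in WT and from 23.9 to 135 CPM in Het, and the difference of the effects was -2.47 (SE 0.49, edgeR adjusted p = 0.0364). Grb14 was below the filter in Lamp5 nuclei fitted alone as well. In Lhx6 nuclei its medians were 37.2 CPM in WT and 23.8 CPM in Het, also lower in Het.

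The Het effect was also compared between the sexes within Vip nuclei. Of 3871 genes, edgeR called 0 (0%), with 211 (5.45%) at an unadjusted p under 0.05, and DESeq2 called 1, the uncharacterized gene Gm32647. With 3 animals per sex and genotype, this comparison had fewer animals in each group than the others.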

How the data were processed

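Cortical nuclei of 12 animals were profiled with the Scale Biosciences kit. Per the study's methods, reads were mapped to mm10 and counted with ScaleRna, all animals being processed on the same plates, and the submitters' processing notes name Seurat 4.3.0 and DESeq2 1.38.3. The deposited matrices hold estimated counts of UMIs per gene and barcode, 92.3% of them whole, which the authors had filtered to called cells. They hold fewer barcodes than the study counts nuclei, and none below 1502 UMIs.

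Members were found by the UMI rule, summed per animal, rounded, and tested with edgeR 4.0.16 (TMM, filterByExpr, robust quasi-likelihood, genotype as the only term) in R 4.3.3. The test was checked on simulated data. Single values were compared by exact permutation over the 924 relabellings of the animals (scipy 1.17.1). Clusters were built with scanpy 1.11.5 (1500 variable genes, 20 components, 15 neighbours, Leiden resolution 0.8). Doublets were scored with Scrublet, and the top 5% of scores per animal were left out only as an alternative. Alternatives were DESeq2 1.42.0, other normalization and filters, stricter members, the limits of the study, sex or replicate number as a term, and leaving out each animal. Named genes were the rule genes and markers, the Myt1 family, the 5 genes of smallest p in each direction, up to 4 per list, genes called in an interaction, and the genes with extreme Vip ratios. The members and lists were chosen with earlier results of these data known. Gene positions are from GENCODE M21. Some items are not reported here.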

Additional observations from a re-analysis of the deposited data

Results flagged for a closer look

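The Het effect differed between Vip and Lamp5 nuclei for 3 genes by the interaction test (edgeR, n = 12 animals), by -1.64 log2 units for Ptprk, -2.47 for Grb14 and -2.55 for Htr2c. The number called was 0 with DESeq2, 0 without cluster 8, 0 with at least 3 Vip UMIs, and 0 in 6 of the 12 fits that left out 1 animal. None of the 3 was called without Het female 2, where the 1 call was Slc44a5. Nor was any of them without the top Scrublet scores, where it was Brinp3. Among the fits that left out 1 animal, Htr2c was called only without WT male 2 and without Het male 3. All 3 were called together only without WT male 2. Striatal markers in Lamp5 nuclei, mostly Rgs9, had a median of 24.6 CPM in WT and 206 CPM in Het. The other 4 markers had medians of 9.76 and 49.5 CPM. The part of these markers in the result was not tested.

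Among the genes and measures named above, 13 of 152 groups of 6 animals had 1 animal far from the other 5. The criterion used flags about 1 in 20 groups of normally distributed values. Low counts need not be so distributed, and some genes were named for their small p. The rate expected by chance for these groups was therefore not measured. Of the 13, 3 were of genes whose UMIs the rule for Vip nuclei used (Gad1, Sst and Slc17a7). WT female 2 was the highest of the WT animals for Gad1 (367 CPM), Cacnb2 (1082 CPM), Erbb4 (14379 CPM) and Rcor1 (69.6 CPM). WT male 1, with 18 Vip nuclei, was the highest for Reln (625 CPM, the others at 114 to 219) and Rxfp1 (260 CPM). WT female 3 held 219 CPM of St18, the others 4.83 to 32.1 CPM. WT female 1 held 0 CPM of Htr1f, the others 62.7 to 87.6 CPM, and WT male 2 was the only WT animal with Sst in its Vip nuclei (2.68 CPM, from 1 UMI). Among Het animals, Het male 2 was the lowest for Kcnq5 (1738 CPM), Het male 3 the highest for Slc17a7 (21.5 CPM), Het female 3 for Slc12a5 (174 CPM) and Het female 2 for Grin2b (2093 CPM). Mid1, chosen after its values were seen, stood at 1773 CPM in Het female 1 and is described among the other observations.

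The virus reporter tdTomato, which no comparison used, was found in 40.4% of Vip nuclei, with 583 UMIs in 239 nuclei, against 61.2% of excitatory nuclei. All animals had been injected, so there is no control without virus.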

How the results depend on the processing

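No comparison of genotype within Vip nuclei gained a call by edgeR under any alternative, and each animal left out in turn gave 0 calls. DESeq2 called 1 gene, Kctd16 (log2 fold change -0.43, adjusted p = 0.00967). The genes whose Het effect differed between Vip and Lamp5 nuclei numbered 3, and 0 with at least 3 Vip UMIs, 0 without cluster 8, 0 with DESeq2, 1 without the top Scrublet scores (Brinp3), 7 with no filter on low counts (the 3 with Brinp3, Kcnab1, Slc44a5 and the striatal gene Rgs9), and 0 to 3 when 1 animal was left out, with 0 without each of WT male 3, the 3 WT females, Het female 1 and Het female 3. The 1 gene called without Het female 2 was Slc44a5, which is not among the 3. The sex difference of the genotype effect gave 1 gene with DESeq2, 2 with no filter, and 0 to 1 when 1 animal was left out, namely Ano3 without WT female 2, Fbn2 without WT female 3 and Gm32647 without Het male 2. The cause was not tested. Replicate numbers do not pair animals (correlations of deviations -0.029 to 0.059), and the replicate block changed no call between Het and WT (0 genes) and added 1 gene to the sex comparison. The comparison with Lhx6 nuclei, the fits without cluster 8 and the sex difference of the shares were chosen after seeing the data. Interactions with Sst and Pvalb nuclei were not run, since 42 and 45 nuclei were found.

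The shares gave differences of opposite sign in some settings, none past the test: of kept nuclei -0.00365 with at least 3 Vip UMIs and -0.0450 to 0.0992 with 1 animal left out, of GABAergic nuclei 0.368 after thinning and -0.524 to 0.118, of median UMIs 1.42 without the top Scrublet scores, 10.8 without cluster 8 and -230 to 144, of Calb2 -0.599 to 0.829, and of Cck -0.224 with at least 3 Vip UMIs and 0.174 to 0.906. Log2 fold changes of genes that were not called also turned: under the limits of the study the rule gene Vip (-0.0037), Adarb2 (from -0.20 to 0.0819), Igf1 (0.14), Car10 (from 0.21 to -0.0776), Htr2c (from -0.22 to 0.24), Gria3 (from 0.25 to -0.22) and Cacna1e (from 0.24 to -0.18), and with at least 3 Vip UMIs Chrm3 (0.0156) and Dcx (0.15). With 1 animal left out they turned for Vip (-0.0381 to 0.0850), Myt1l (-0.0039 to 0.0861), Htr2c (-0.44 to 0.24), Gabra2 (-0.0421 to 0.21) and Ncam1 (-0.0015 to 0.11).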

Other observations

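The largest log2 fold change between Het and WT in Vip nuclei belonged to Mid1, an X-linked gene for a ubiquitin ligase of microtubules that spans the pseudoautosomal boundary in the mouse. It was singled out after its values were seen. Its log2 fold change of 3.31 (SE 1.22, edgeR adjusted p = 0.866) rested on 2 of 6 Het animals, both female. On CPM pooled within an animal, Vip nuclei of Het female 1 held 1773 CPM of Mid1 and those of Het female 3 held 479 CPM, whereas the other 10 animals lay between 31.2 and 61.2 CPM. At least 3 Mid1 UMIs were found in 61 of 67 Vip nuclei of Het female 1 and in 15 of 65 of Het female 3, against 3 of 459 nuclei of the other animals. In Het female 3, 40 Vip nuclei held no Mid1 UMI and the highest nucleus held 34.

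The same 2 animals were high in the other nuclei. In excitatory nuclei Het female 1 held 2109 CPM and Het female 3 held 541 CPM, and the others 30.3 to 57.7 CPM. In Lhx6 nuclei the values were 2031 and 761 CPM against 24.3 to 84.5 CPM. Without Het female 1 the log2 fold change in Vip nuclei was 1.77 (SE 0.86). The cause was not tested.

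The virus reporter tdTomato was found in 11.5% of the nuclei of cluster 6 and in 80.5% of cluster 10, with other clusters between 23.8 and 61.2%. By animal it was found in 22.2 to 60.0% of WT Vip nuclei and in 28.8 to 52.2% of Het Vip nuclei, which overlapped.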
